A study of Oryza sativa with 35 samples.

Results

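The Aux/IAA and auxin response factor (ARF) families of rice were examined across organs of the plant at heading. Members were all genes whose symbol or synonym, without a leading Os, is IAA or ARF followed only by digits, and each was read at its brightest probe set that has 1 annotated gene. Of 51 such genes in the gene table (28 Aux/IAA and 23 ARF), 43 had a probe set (26 Aux/IAA and 17 ARF), out of 17905 genes with a probe set of their own on the array. A filter on dim probe sets left 41 of them for testing, 24 Aux/IAA and 17 ARF. IAA16 and IAA26 did not pass it, with highest group means of 4.25 and 4.90 on the log2 scale, below the median of all values (5.83).

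RNA of Oryza sativa cultivar Nipponbare, grown on soil in a greenhouse, was hybridised to 35 1-colour Affymetrix arrays in 14 groups. The groups with replicates were the flower before anthesis, the panicle branch, node II, node I, the base and top of internode I, the base and top of the flag leaf sheath, and the base, middle and tip of the flag leaf blade. Each had 3 arrays, except the sheath base with 2. Whole blades of the flag leaf, of leaf 2 and of leaf 4 were on 1 array apiece and entered no test. No plant was treated, and all groups share cultivar and stage. The repeats are labelled as biological, but nothing says that each is a different plant, so the p-values cover only the spread among these arrays, and the number of arrays limits the precision. An organ is a mixture of cell types, so fewer cells of a type and less RNA per cell cannot be told apart.

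Auxin acts in the nucleus through these families. ARF proteins bind DNA at auxin-responsive genes, some activating and others repressing them, and Aux/IAA proteins bind ARFs and hold their targets silent together with co-repressors of the TOPLESS type. When auxin rises, receptors of the TIR1/AFB type mark Aux/IAA proteins for degradation, and many Aux/IAA genes are themselves transcribed in response to auxin. Some ARF transcripts are cut by small RNAs, with separate classes cut by miR160, by miR167 and by tasiR-ARF. In grass stems, auxin is associated with elongation of the internode, with vascular tissue and with the bending of nodes and leaf joints.

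Levels are log2 of quantile-normalised signal, and differences are on the same scale. A gene was called when its limma p-value, adjusted over all 38673 probe sets tested, was under 0.05 and its change at least 2-fold. Levels of different genes come from different probe sets and are not compared. The labels were checked against marker genes. Lsi2, a silicon transporter of nodes, averaged 12.30 in node II and 12.43 in node I, against 1.76 to 4.04 in the other groups. The node markers Lsi6 and HMA2 set nodes apart less. Lsi6 averaged 14.63 to 14.83 in nodes and 14.08 at the sheath base, and HMA2 9.66 to 10.15 in nodes and 9.20 at the internode top. The floral genes MADS3, MADS58, MADS4 and MADS16 averaged 10.82 to 14.05 in flowers. In the other groups MADS3, MADS58 and MADS4 averaged 2.10 to 7.09, and MADS16 9.05 to 11.90. CESA4, CESA7 and CESA9, of the secondary wall, averaged 13.83 to 14.59 at the internode base, against 3.71 to 11.54 in the other groups. The green leaf genes did not set the blade apart from the panicle branch or the internode top. RBCS averaged 14.85 to 14.94 in the blade, 15.02 in the panicle branch and 14.94 at the internode top. CHLH averaged 13.43 to 13.49, 13.68 and 13.57 there, and GLK1 12.80 to 12.87, 12.94 and 12.82. Of the dividing cell genes, PCNA averaged 6.42 at the internode base and 9.33 to 10.28 elsewhere. CYCB1-1 averaged 1.27 and 2.49 to 8.94, and CYCB2-2 1.29 and 1.17 to 7.62. The listed markers MADS2 and LHCB3 found no match and are not used here. The base arrays of the flag sheath stand apart. They correlated at r = 0.864, against 0.917 to 0.951 for pairs of arrays in the other groups, and the sheath results are also given without each of them.

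Nearly all members differed between organs. The moderated F test over the 11 replicated groups called 40 of 41 members, all 24 Aux/IAA and 16 ARF, against 80.3% of all probe sets tested. ARF13, near the median of all values with group means of at most 5.79, was the ARF not called (adjusted p = 0.476). Among the 41 members the group with the highest mean was the internode base for 12 (29.3%, against 18.4% of all probe sets), node I for 8 (19.5% against 8.69%) and node II for 5 (12.2% against 8.60%). The group with the lowest mean was the blade tip for 17 members (41.5% against 9.92%), of which 14 were Aux/IAA, and the flower for 10 (24.4% against 17.4%). Node I, node II and the sheath base were each the lowest group for 0 of the 41, against 7.01%, 8.15% and 7.35% of all probe sets. Adjacent organs in these rankings were often within the spread of their arrays. IAA30 averaged 13.34 in node II and 13.32 in node I, and the means of IAA13 at the internode base and in node I differed by 0.01.

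**Figure D1:**
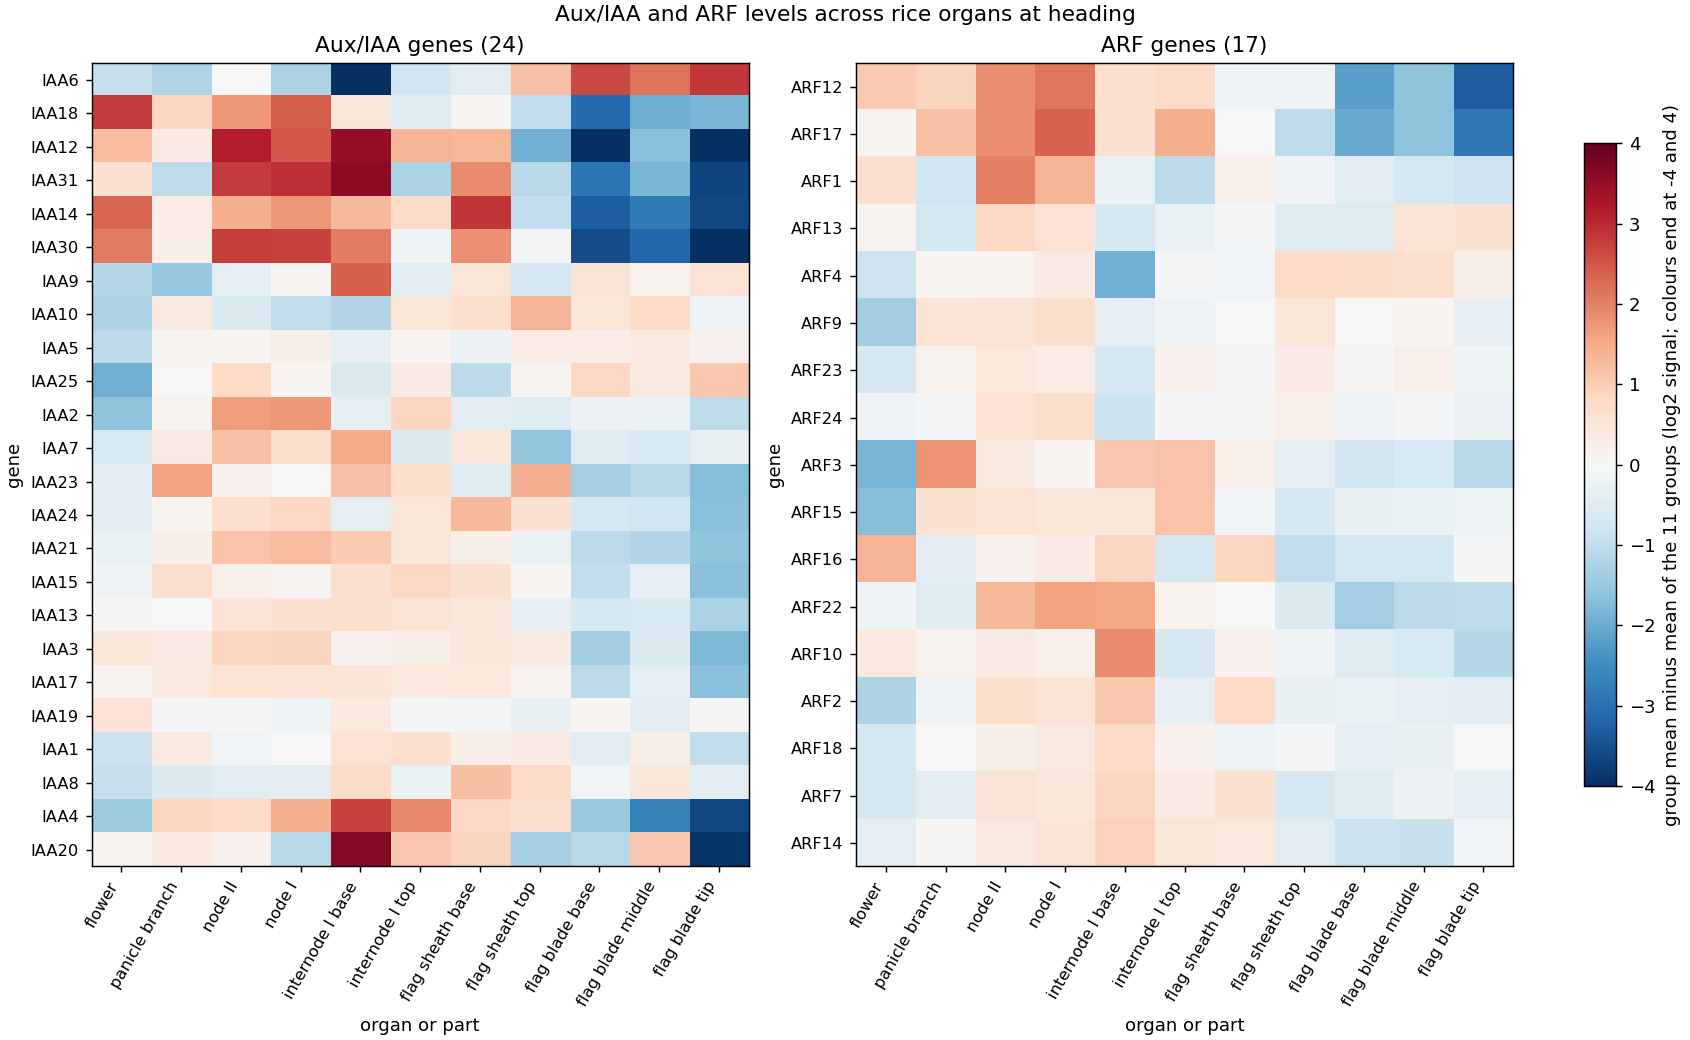
Each cell is a group mean minus the mean of the 11 replicated groups on the log2 scale, for 24 Aux/IAA genes (left) and 17 ARF genes (right), with genes ordered by likeness of pattern and colours ending at -4 and 4. IAA12, IAA30 and IAA31 are red in both nodes and at the internode base and blue in the blade, while IAA6 is red in the blade, blue at the internode base and near white in node II.

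In some members all arrays of an organ lay above those of every other replicated group. Each such organ was picked from these same arrays, and the share over all probe sets was not computed. IAA20 was highest at the internode base, with 9.78, 8.43 and 11.02 on its arrays, 2.59 above the next group (internode top). IAA9 had 8.83, 8.14 and 9.48 there, 1.85 above the next group, and ARF10 had 10.23, 10.09 and 10.35, 1.48 above the next. The arrays were likewise apart for IAA4 at the internode base (10.24 on average, 0.81 above the internode top), ARF1 in node II (12.45 on average, 0.67 above node I), ARF17 in node I (13.52, 0.52 above node II), ARF3 in the panicle branch (13.17, 0.68 above the internode top), ARF15 at the internode top (12.19, 0.54 above the panicle branch) and IAA10 at the sheath top (13.34, 0.56 above the blade middle). The same held at the internode base for ARF18 (12.17 on average, 0.44 above node I) and IAA12 (11.69, 0.38 above node II). Some of these arrays were barely apart. The lowest internode base array of IAA12 had 11.62, against 11.59 on sheath base replicate 2. For IAA4 these values were 9.83 and 9.74 (internode top replicate 2). The lowest sheath top array of IAA10 had 13.19, against 13.11 on blade middle replicate 3. The gap to the next organ was not called for IAA4 (adjusted p = 0.392), ARF1 (adjusted p = 0.314) or ARF17 (adjusted p = 0.496), although 1 of the other probe sets of IAA4 was called (1.22 ± 0.44, adjusted p = 0.026). It was called for IAA20 (adjusted p = 0.0143), but not without base replicate 3 (adjusted p = 0.0915) or top replicate 2 (adjusted p = 0.0606). This gap was not tested for IAA9, ARF10, ARF18, IAA12, ARF3, ARF15 and IAA10. The widest ranges of group means belonged to Aux/IAA genes: 9.21 for IAA12, 7.59 for IAA20 and IAA30, 7.24 for IAA31 and 6.99 for IAA6. The lowest group means of these genes were 2.15 (IAA20) to 5.75 (IAA30), below the median of all values (5.83). The sizes of their ranges are therefore poorly set. IAA17, IAA3 and IAA13 varied less, by 2.24, 2.70 and 1.89, with group means of 12.04 to 15.05.

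The nodes, where leaf and stem vasculature meet, carried far more transcript of many members than the flag leaf blade. Of 41 members 22 rose (15 Aux/IAA and 7 ARF), against 19% of all probe sets tested, and 2 Aux/IAA and 0 ARF fell, against 19.1%. The median difference over members was 1.04, against 0.00 over all probe sets tested. Every node array lay on 1 side of every blade array in 22 of these 24 members (ARF14 and IAA15 overlapped), against 72.8% of all probe sets called. The same comparison changed many genes of other kinds. Node markers (3 of 3), secondary wall markers (3 of 3) and dividing cell markers (2 of 3) were higher in nodes and green leaf markers (3 of 3) lower. CYCB1-1 and CYCB2-2, the dividing cell markers called, averaged under the median of all values in every blade part. The summed signal of the green leaf list was 1710 to 3010 in nodes, against 45300 to 53200 in the blade, and that of the secondary wall list 2860 to 7550 against 61.5 to 150. None of the green leaf markers was below the median of all values on any array. Their part in the results was not tested.

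IAA30 and IAA31, Aux/IAA genes that lie side by side in the gene table with 0 genes between them, were among the largest differences. IAA30 had 13.04 as the lowest, 13.28 as the median and 13.72 as the highest of 6 node arrays, against 5.44, 6.64 and 8.28 over 9 blade arrays. IAA31 had 11.94, 12.19 and 12.47 in nodes, against 4.75, 6.54 and 8.70 in the blade. For both genes a gap of more than 3 log2 units parted the lowest node array from the highest blade array. The differences were 6.58 ± 0.30 for IAA30 (SE, 95.4-fold, adjusted p = 7.59e-15) and 5.66 ± 0.38 for IAA31 (50.7-fold, adjusted p = 6.24e-12). Over the 11 group means the profiles of this pair correlated at r = 0.91, a description of points that share arrays. The profile of IAA30 was closer to those of IAA14 (0.95), IAA3 (0.94), ARF12 (0.93) and IAA12 (0.93).

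IAA12 had 10.16, 11.21 and 11.50 as the lowest, median and highest node values, against 1.30, 4.80 and 7.76 in the blade. Most blade arrays therefore lay below the median of all values, where a level is poorly set. Its difference was 6.60 ± 0.56 (adjusted p = 4.37e-10), and 5.45 on the log2(signal + 16) scale, which damps dim values. IAA14 averaged 7.69 in nodes and 2.84 in the blade, a difference of 4.85 ± 0.55, or 3.14 on the damped scale. IAA18 averaged 9.54 in nodes and 5.17 in the blade (4.37 ± 0.30, or 3.80 on the damped scale), and IAA4 8.60 in nodes and 4.89 in the blade (3.71 ± 0.47, or 2.95). The other probe sets of IAA4 gave 2.31 ± 0.28 and 2.36 ± 0.32, both called. IAA21, IAA2 and IAA3 were 2.45 ± 0.11, 2.20 ± 0.20 and 2.14 ± 0.14 higher, and IAA17, read by a probe set that may also read related transcripts, was 1.58 ± 0.12 higher. IAA10 and IAA6 fell, by 1.14 and 3.17 log2 units. IAA6, known in rice from work on tillering and drought, had 7.00, 7.69 and 8.79 in nodes, against 10.16, 10.97 and 11.67 in the blade, so that no array of the groups overlapped. It had 11.86 on the whole blade of leaf 2 and 12.60 on that of leaf 4, each a single array.

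Among the ARFs, ARF12 and ARF17 showed the largest steps. Both are activator-type ARFs with a glutamine-rich middle region and belong to the class cut by miR167, and in rice both are known from work on shoot gravitropism. ARF12 had 13.39, 13.52 and 13.88 as the lowest, median and highest node values, against 8.01, 9.01 and 10.85 in the blade (4.36 ± 0.23, 20.5-fold, adjusted p = 1.20e-13). ARF17 had 12.90, 13.22 and 13.64 in nodes, against 8.03, 9.04 and 9.94 in the blade (4.28 ± 0.14, 19.5-fold, adjusted p = 3.54e-17). No node array of either gene came within 2 log2 units of a blade array. The internode top lay closer to the nodes than to the blade, with 12.37, 12.39 and 12.38 for ARF12 and 12.52, 12.47 and 12.71 for ARF17. In nodes relative to the internode top ARF12 was called and ARF17 was not. Their profiles over the 11 group means correlated at r = 0.96, among the 3 highest values of all pairs of members, beside IAA17 with IAA3 and IAA12 with IAA13, both 0.96. Of the 3 miR160 targets measured, ARF22 (2.58 ± 0.12) and ARF10 (1.03 ± 0.20) were higher in nodes, while ARF18 differed by 0.51. Of the 4 tasiR-ARF targets, ARF14 (1.06 ± 0.18) and ARF3 (1.04 ± 0.17) were higher. ARF1 was 2.36 ± 0.15 higher. The calls of ARF10, ARF14 and ARF3 lie at the 2-fold limit and were each lost without one or more single arrays, at 0.86 to 0.99. With hybridization controls set equal, ARF3, ARF10, ARF14, IAA13 and IAA15 lost their calls, at 0.61 to 0.90.

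**Figure D2:**
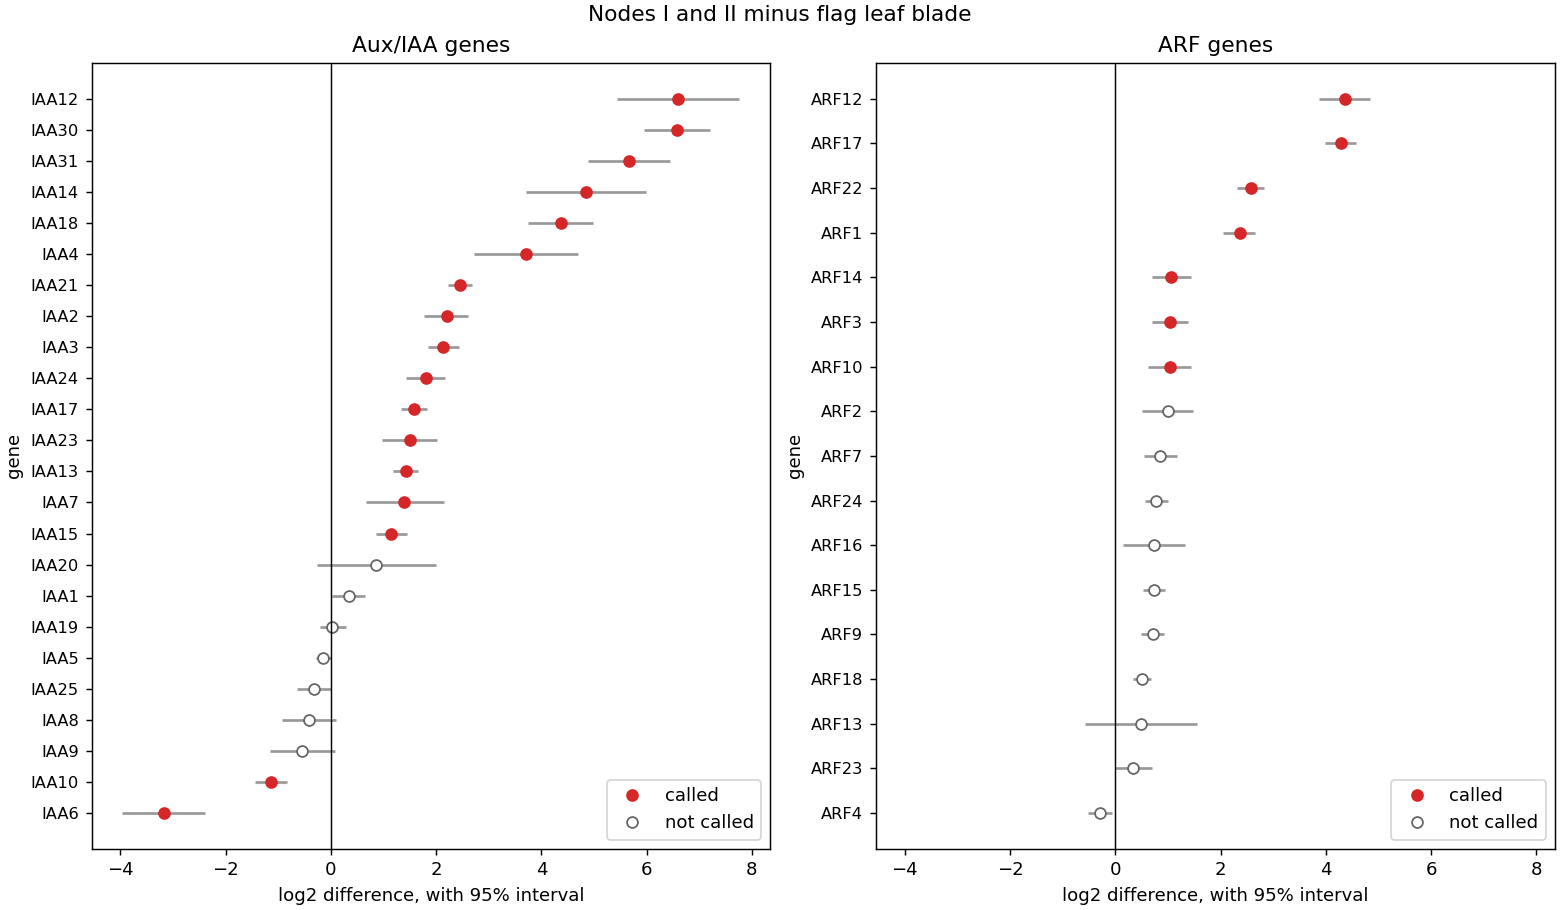
Points are log2 differences between 6 node arrays and 9 flag blade arrays with 95% intervals, for Aux/IAA genes (left) and ARF genes (right), and filled points were called. Of 41 genes 22 were called higher in nodes and 2, IAA6 and IAA10, lower.

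**Figure D3:**
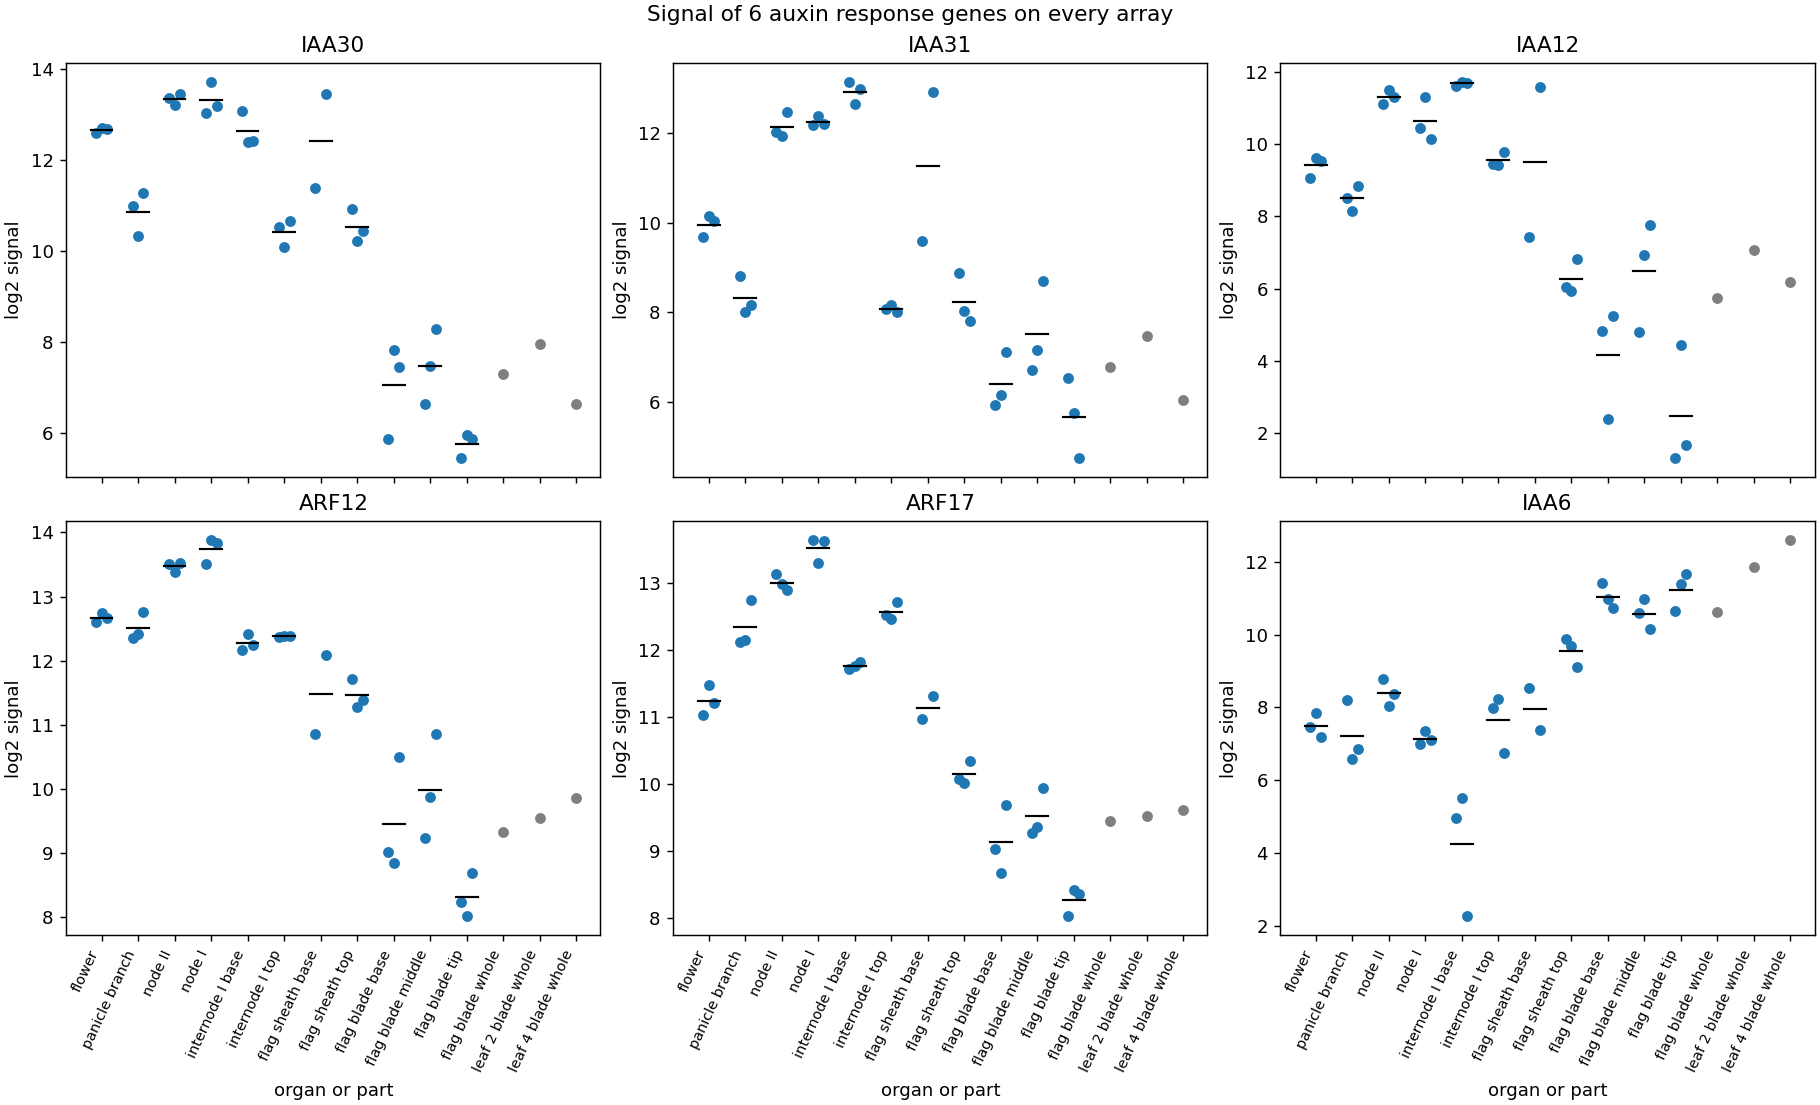
Every point is the log2 signal of 1 array and every bar a group mean, for 6 genes across 14 groups, with unreplicated whole blades in grey. IAA30, IAA31, IAA12, ARF12 and ARF17 are low in all blade samples and high in both nodes, IAA6 is high in the blades, and at the sheath base the 2 arrays of IAA31 and IAA12 lie far apart.

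The comparisons of stem parts share arrays, since the top of internode I and the nodes enter several of them. Against the top of internode I, the nodes had 7 members higher (17.1%, against 10.2% of all probe sets tested) and 1 lower (2.44% against 11.3%). The median over members was 0.28, against 0.03 over all probe sets. IAA31 had 12.18, 12.39 and 12.20 in node I and 12.02, 11.94 and 12.47 in node II, against 8.07, 8.16 and 8.00 at the internode top. The 6 node arrays lay close together and about 4 log2 units above the internode top (4.12 ± 0.51, 17.4-fold, adjusted p = 7.79e-07). IAA30 (2.91 ± 0.41), ARF1 (2.74 ± 0.20), IAA18 (2.61 ± 0.40), ARF22 (1.33 ± 0.16) and ARF12 (1.23 ± 0.31) were also higher, with no overlap between arrays, as in 88.8% of all probe sets called. ARF1, for example, had 11.64, 11.93 and 11.78 in node I and 12.56, 12.36 and 12.45 in node II, against 9.39, 9.50 and 9.26 at the internode top. IAA7, a dim gene, was called at 1.48 ± 0.48 although its arrays overlapped, and the call was lost without internode I top replicate 2 (adjusted p = 0.122) or 3 (adjusted p = 0.0993). IAA10 fell by 1.28 ± 0.20. Green leaf markers (3 of 3) were lower in the nodes, with summed signals of 1710 to 3010 against 45000 to 55100, and secondary wall markers (3 of 3) and node markers (2 of 3) higher. Their part in the results was not tested.

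Between node II and node I no member passed the threshold (0 called, against 0.0724% higher and 0.124% lower of all probe sets tested by limma). At an unadjusted p under 0.05, 3 members had a positive difference (node II minus node I) and 1 a negative one, against 3.78% and 4.96% of all probe sets. ARF1 averaged 12.45 in node II and 11.78 in node I (0.67 ± 0.23, adjusted p = 0.314), and its 3 node II arrays all exceeded its 3 node I arrays. ARF17 averaged 13.01 in node II and 13.52 in node I (-0.52 ± 0.22, adjusted p = 0.496). The other members past the unadjusted threshold were IAA25 (0.72 ± 0.24) and IAA6 (1.26 ± 0.59).

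Within internode I, the base held more transcript of 11 members than the top (26.8%, against 13.8% of all probe sets tested) and less of 4 (9.76% against 18.7%). The median over members was 0.42, against -0.12 over all probe sets. Of 24 Aux/IAA genes 7 rose and 3 fell, and of 17 ARFs 4 rose and 1 fell. The base arrays lay entirely on 1 side of the top arrays in all 15 called members, as in 95.4% of all probe sets called. IAA31 led, with 13.14, 12.64 and 12.99 at the base, against 8.07, 8.16 and 8.00 at the top. The base arrays lay close together and far above the top arrays (4.85 ± 0.59, 28.7-fold, adjusted p = 4.04e-07). Its neighbour IAA30 had 13.08, 12.40 and 12.42 at the base, against 10.52, 10.08 and 10.66 at the top (2.21 ± 0.47, adjusted p = 0.000416). IAA9 rose by 2.82 ± 0.47, IAA20 by 2.59 ± 0.84 and IAA7 by 2.04 ± 0.56.

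ARF10 and ARF22, targets of miR160, rose at the internode base, and ARF18 of the same class differed by 0.63 and was not called. ARF10 had 10.23, 10.09 and 10.35 at the base, against 7.50, 7.74 and 7.77 at the top (2.55 ± 0.30, 5.87-fold, adjusted p = 3.03e-07). ARF22 had 12.97, 12.70 and 12.67 at the base, against 11.35, 11.41 and 11.28 at the top (1.43 ± 0.19). In both genes the arrays of a group differed far less than the groups did. ARF16, an activator-type ARF, rose by 1.52 ± 0.44 and ARF2, a tasiR-ARF target, by 1.42 ± 0.36. A dimmer probe set of ARF2 gave 0.97 ± 0.48 and was not called. The miR167 targets ARF12 and ARF17 differed by -0.10 and -0.80 between base and top and were not called.

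IAA6 fell furthest at the internode base, with 4.97, 5.50 and 2.25 there, against 7.98, 8.24 and 6.74 at the top (-3.41 ± 0.59, adjusted p = 4.23e-05, and -2.48 on the log2(signal + 16) scale). ARF4, known in rice from work on grain size, had 10.98, 11.23 and 10.93 at the base, against 13.07, 12.71 and 12.85 at the top (-1.83 ± 0.17, adjusted p = 6.27e-09). A further probe set of ARF4 gave -2.00 ± 0.18. IAA10 fell by 1.67 ± 0.23 and IAA2 by 1.22 ± 0.31. Markers moved in the same comparison: 3 of 3 secondary wall markers were higher at the base, with summed signals of 51500 to 60900 against 703 to 1350, while 3 of 3 green leaf markers (6390 to 7100 against 45000 to 55100) and 3 of 3 dividing cell markers (45.6 to 192 against 942 to 1010) were lower. Their part in the results was not tested. The calls of IAA12 (2.13 ± 0.87, adjusted p = 0.0485), IAA8 (1.05 ± 0.38, adjusted p = 0.0273) and IAA20 (adjusted p = 0.0143) were lost without single arrays: IAA12 without any 1 of the 6, IAA8 without top replicate 1 or 2 or base replicate 3, and IAA20 without top replicate 2 or base replicate 3. IAA8 also lost its call on the deposited scale (0.83, adjusted p = 0.0841), with hybridization controls set equal (0.80, adjusted p = 0.0969) and on the log2(signal + 16) scale (0.98). IAA12 also lost its call with these controls set equal (adjusted p = 0.071) and with no filter (adjusted p = 0.0705). Under the 13 alternatives IAA8 kept its call in 7 and IAA12 in 5.

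**Figure D4:**
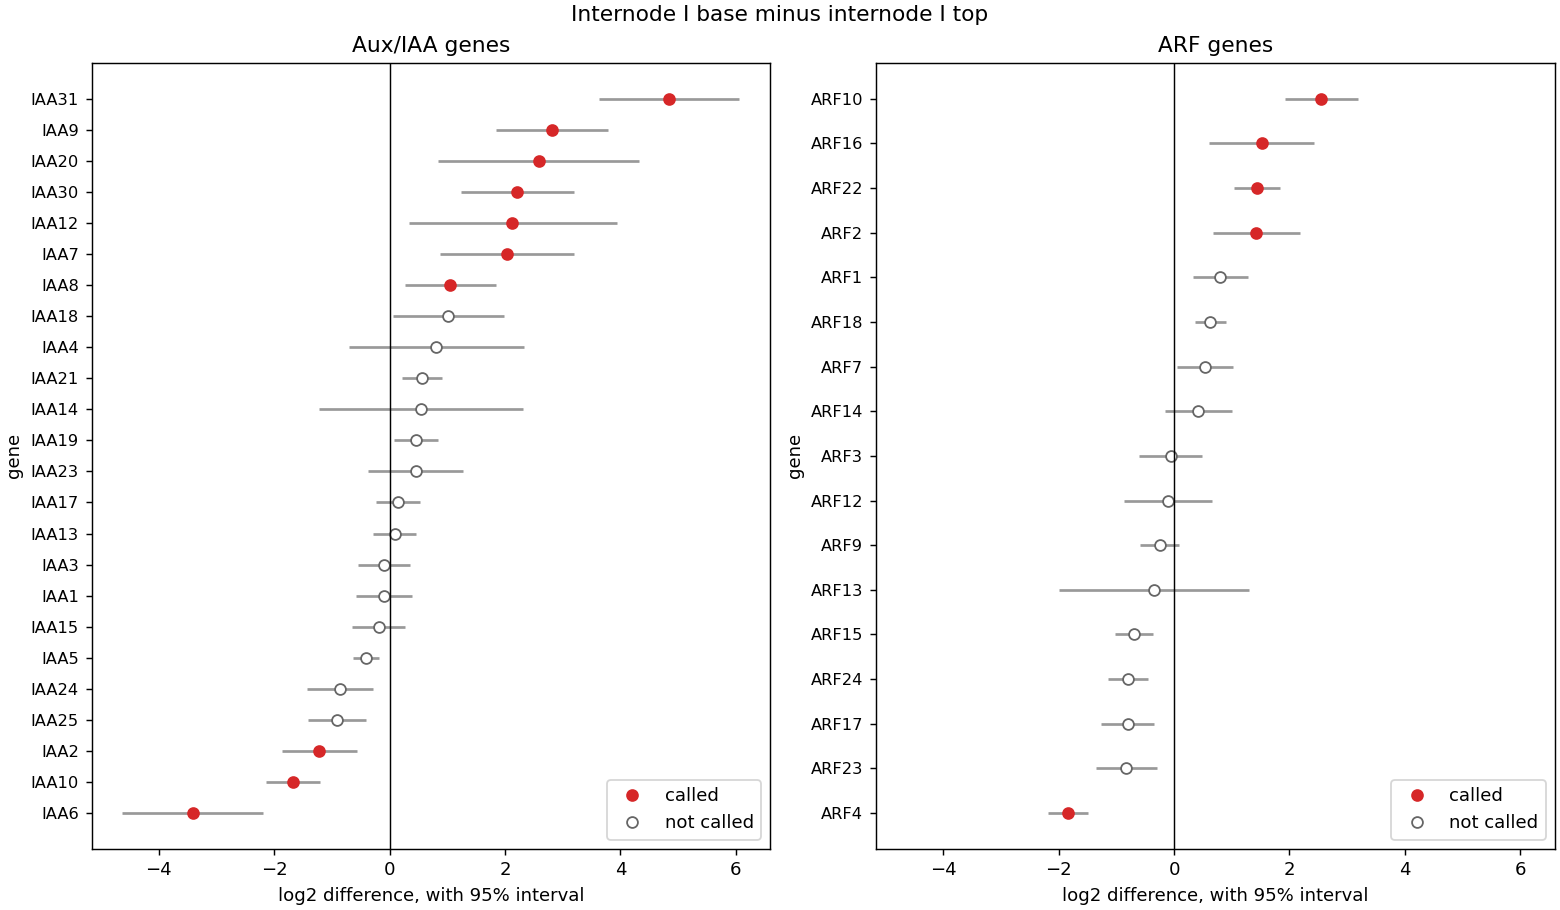
Points are log2 differences between the base and the top of internode I (3 arrays each) with 95% intervals, for Aux/IAA genes (left) and ARF genes (right), and filled points were called. IAA31 lies furthest to the right at 4.85 and IAA6 furthest to the left at -3.41.

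At the base of the flag leaf sheath, 8 members rose relative to the sheath top (19.5%, against 8.53% of all probe sets tested) and 2 fell (4.88% against 9.02%), with a median of 0.45 over members and -0.05 over all probe sets. These calls rest on base replicate 2. IAA31 had 9.59 and 12.92 on base replicates 1 and 2, against 8.87, 8.04 and 7.80 at the top (3.02 ± 0.66). IAA12 had 7.44 and 11.59, against 6.05, 5.93 and 6.83 (3.24 ± 0.97), and ARF16 had 7.99 and 11.23, against 7.85, 7.76 and 7.69 (1.84 ± 0.49). The first base array lay just above the top arrays in these genes, and the other more than 3 log2 units above them. IAA14 (3.85 ± 0.96), IAA7 (2.03 ± 0.62), IAA30 (1.88 ± 0.52), ARF7 (1.24 ± 0.26) and ARF2 (1.09 ± 0.41) were the other members called higher, and IAA23 (-1.89 ± 0.44) and IAA25 (-1.16 ± 0.27) the members called lower. On base replicates 1 and 2 IAA30 had 11.38 and 13.45, IAA14 7.56 and 10.36, IAA7 4.99 and 6.66, and ARF7 10.43 and 11.39.

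Without base replicate 2, which leaves a single base array assumed to vary like the other groups, limma called none of the 41 members, and ARF2 changed sign, to -0.22. The differences were then 2.45 for IAA14, 1.35 for IAA31, 1.19 for IAA7, 1.17 for IAA12, 0.85 for IAA30, 0.76 for ARF7, 0.23 for ARF16, -1.49 for IAA23 and -0.55 for IAA25. Without base replicate 1 there were 13 members called higher and 4 lower. The same genes then gave 5.25 for IAA14, 4.68 for IAA31, 2.86 for IAA7, 5.32 for IAA12, 2.91 for IAA30, 1.72 for ARF7, 3.46 for ARF16, -2.29 for IAA23 and -1.78 for IAA25, with ARF2 at 2.40. Over all probe sets tested the counts were 1208 higher and 1630 lower without replicate 2, and 4570 and 5310 without replicate 1, against 3297 and 3490 with both. A fit of the sheath groups alone called 0 members. The call of IAA7 was also lost without top replicate 3 (adjusted p = 0.12), and that of ARF2 without any 1 of the top arrays (adjusted p = 0.0587 to 0.12). Secondary wall markers (3 of 3) and dividing cell markers (2 of 3) were higher at the sheath base and green leaf markers (3 of 3) lower. Summed signals of the secondary wall list were 1960 to 8240 on the 2 base arrays, against 110 to 168 at the top, and those of the green leaf list 7390 to 14500 against 35600 to 44800. Their part in the results was not tested.

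**Figure D5:**
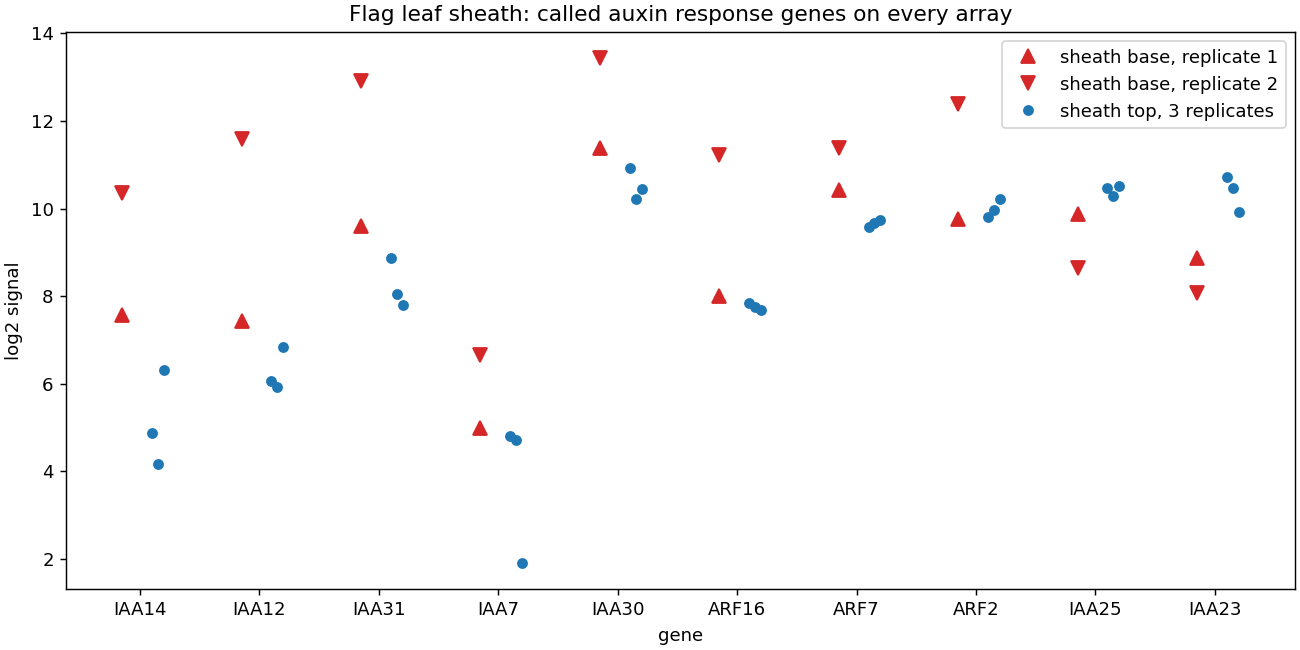
Points are log2 signals of the 10 members called between flag sheath base (red, upward triangle for replicate 1 and downward triangle for replicate 2) and flag sheath top (blue). For the 8 genes called higher, replicate 2 lies above replicate 1, and for ARF2 replicate 1 lies just below the top arrays.

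The base-to-top difference of internode I was also tested against that of the flag sheath, using the same arrays. It differed in 5 of 41 members, positively in 2 (4.88%, against 6.99% of all probe sets tested) and negatively in 3 (7.32% against 10.3%). The number of negative ones depended on the setting, with 6 on the deposited scale, 7 without either sheath base array, 6 without internode base replicate 2 and 5 without internode top replicate 2, and that of positive ones reached 6 without sheath base replicate 2. ARF10 differed between base and top by 2.55 in the internode and 0.35 in the sheath (difference 2.20 ± 0.46, adjusted p = 0.00105). ARF17 differed by -0.80 in the internode and 1.00 in the sheath (difference -1.80 ± 0.33, adjusted p = 0.000338). The other 3 were IAA23, ARF15 and IAA24. IAA30 and IAA31, called at the base of both organs, were not among the 5.

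Along the flag blade, 0 of 41 members were called between base and tip (against 0.186% higher and 0.282% lower of all probe sets tested by limma). At an unadjusted p under 0.05, 14 members had a positive difference (base minus tip) and 3 a negative one, against 4.84% and 4.59% of all probe sets. The median difference over members was 0.35, against 0.00 over all probe sets, and 0.56 over the 24 Aux/IAA genes. Base replicate 3 stood apart in some members. It was the highest base array for ARF12 (9.01, 8.84 and 10.49) and IAA3 (11.96, 12.26 and 13.09), and the lowest for IAA25 (11.16, 11.41 and 10.91). The node marker Lsi6 had 10.52, 10.62 and 12.54 at the base. Summed signals of the node list were 1550 to 6110 at the base, against 1100 to 1500 at the tip. No listed marker was called here, and the part of this array in the unadjusted counts was not tested. Among the brightest probe sets ARF17 came closest to the adjusted threshold, with 9.04, 8.68 and 9.69 at the base, against 8.03, 8.43 and 8.37 at the tip (0.86 ± 0.22, adjusted p = 0.0912). Its base arrays all lay above its tip arrays. IAA24 had 10.04, 10.15 and 10.73 at the base, against 9.27, 9.14 and 9.51 at the tip (0.99 ± 0.28, adjusted p = 0.127). IAA13 (0.63 ± 0.18, adjusted p = 0.134) was next. IAA18 lay the other way, at 4.36 at the base and 5.64 at the tip (-1.29 ± 0.46, adjusted p = 0.301), both below the median of all values.

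In the flower, more members fell than rose relative to the panicle branch. Of 41 members 12 fell (29.3%, against 15.9% of all probe sets tested) and 5 rose (12.2% against 12.7%). None of these 17 overlapped between arrays, as was so for 96.6% of all probe sets called. The median over members was -0.37, against -0.18 over all probe sets. ARF3, a tasiR-ARF target whose Arabidopsis counterpart ETTIN patterns the gynoecium, had 9.33, 9.60 and 9.70 in flowers, against 13.39, 13.07 and 13.05 in panicle branches (-3.63 ± 0.26, 12.4-fold lower, adjusted p = 2.47e-10). ARF15, of the same class, had 9.30, 9.39 and 9.31 in flowers, against 11.63, 11.84 and 11.49 in panicle branches (-2.32 ± 0.16, adjusted p = 9.97e-11). The flower arrays of ARF3 and ARF15 lay together and at least 2 log2 units under every panicle branch array. ARF2 fell by 1.07 ± 0.36, a call lost without flower replicate 2 or panicle branch replicate 2, so 3 of 4 tasiR-ARF targets fell, with ARF14 at -0.45 and a median of -1.70 over the 4.

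Outside that class ARF9 fell by 1.91 ± 0.16 and ARF17 by 1.09 ± 0.22, while ARF12, the other miR167 target, differed by 0.16 and was not called. ARF17 was under the 2-fold limit without flower replicate 1 (-0.99) or panicle branch replicate 3 (-0.88). Of the Aux/IAA genes 7 fell, among them IAA4 (-2.30 ± 0.73), IAA23 (-2.03 ± 0.39), IAA25 (-1.92 ± 0.24), IAA2 (-1.75 ± 0.31) and IAA10 (-1.60 ± 0.23). IAA25 had 8.78, 8.10 and 8.25 in flowers, against 10.33, 10.06 and 10.52 in panicle branches with no overlap between the groups. The call of IAA4 was lost with hybridization controls set equal (-1.85, adjusted p = 0.0595). A dimmer probe set of IAA1 gave -0.25, against -1.22 ± 0.23 at the brightest.

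The 5 members that rose in flowers were IAA18, ARF16, IAA30, IAA31 and ARF1. IAA18 had 10.07, 10.55 and 10.17 in flowers, against 8.39, 7.66 and 8.95 in panicle branches (1.93 ± 0.46, 3.81-fold). IAA30 had 12.60, 12.71 and 12.68 in flowers, against 10.99, 10.34 and 11.27 in panicle branches (1.80 ± 0.47). The flower arrays of IAA30 lay close together and above all panicle branch arrays. ARF16 rose by 1.81 ± 0.44, ARF1 by 1.40 ± 0.23 and IAA31 by 1.62 ± 0.59 (adjusted p = 0.0289, lost without flower replicate 2 or 3 or panicle branch replicate 2 or 3). Floral markers (4 of 4) and secondary wall markers (3 of 3) were higher in flowers, at summed signals of 24200 to 29600 against 1660 to 3700 and of 4740 to 7100 against 335 to 1040, and green leaf markers (3 of 3) lower, at 13800 to 16800 against 50600 to 57200. Their part in the results was not tested.

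Other genes of the auxin pathway, taken by symbol, were fewer on the array. GH3 enzymes conjugate auxin or jasmonate to amino acids, and GH3 genes are a common readout of auxin response. Of 9 measured, 4 rose and 1 fell in nodes relative to the blade (against 19% and 19.1% of all probe sets), and 5 rose and 0 fell in flowers relative to panicle branches (against 12.7% and 15.9%). In nodes relative to the internode top 6 rose and 0 fell (against 10.2% and 11.3%), at the internode base 4 and 0 (13.8% and 18.7%), at the sheath base 1 and 1 (8.53% and 9.02%), and in node II 0 and 1 relative to node I (0.0724% and 0.124%). GH3.1 had 9.74, 10.16 and 10.01 in node I and 10.69, 10.51 and 10.84 in node II, and 1.53 to 5.07 on the blade arrays (6.92 ± 0.65, adjusted p = 2.40e-09). All of these blade arrays lay below the median of all values, and the difference was 5.53 on the log2(signal + 16) scale. GH3-8 had 12.64, 12.20 and 12.48 in flowers, against 8.00, 6.12 and 6.89 in panicle branches (5.43 ± 0.71, adjusted p = 1.49e-06). GH3.2 ran against GH3.1 between nodes and blade, falling by 3.69 ± 0.36 in nodes.

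Of the PIN auxin efflux carriers, 4 of 5 measured passed the filter. The gene listed as PIN4 had 6.46, 6.94 and 5.91 at the internode base, against 11.87, 11.54 and 11.93 at the top (-5.34 ± 0.52, adjusted p = 1.59e-08). In flowers it had 3.51, 4.77 and 5.80, against 11.73, 11.23 and 12.19 in panicle branches (-7.03 ± 0.52, adjusted p = 3.88e-10). These flower arrays were below the median of all values, and the difference was -6.27 on the log2(signal + 16) scale. PIN5a fell in the same comparisons, by 4.84 ± 0.67 and 3.90 ± 0.67 (-3.65 and -3.09 on the damped scale). In nodes relative to the blade 2 of the 4 carriers rose and 0 fell (against 19% and 19.1% of all probe sets). PIN3a was 3.23 ± 0.25 higher in nodes than in the blade. PIN4 had 12.36 to 13.57 on node arrays and 8.04 to 10.75 on blade arrays, and was 3.26 ± 0.29 higher in nodes on the damped scale. SAUR39 acts in rice as a negative regulator of auxin synthesis and transport. It fell by 4.65 ± 0.37 in nodes relative to the blade and by 3.27 ± 0.58 at the internode base (-4.31 and -2.12 on the damped scale). Its internode base arrays, at 4.71, 1.72 and 4.49, all lay below the median of all values. The synthesis genes FIB and YUCCA1 and the co-repressors TPR2 and TPR3 were called by limma in none of the comparisons (0 of 2 each). Both co-repressors were nevertheless higher in nodes than in the blade, by less than 2-fold. By limma TPR2 differed by 0.53 ± 0.13 (adjusted p = 0.000875) and TPR3 by 0.41 ± 0.07 (adjusted p = 7.44e-06). In nodes relative to the internode top TPR3 differed by 0.49 ± 0.09 (adjusted p = 0.00012) and TPR2 by 0.41 ± 0.17 (adjusted p = 0.0647). No TIR1 or AFB receptor was matched by symbol to a probe set, and receptors are not analysed here.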

How the data were processed

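The values are the authors' deposited signal intensities on a linear scale, from 0.0536 to 66643 for 57381 probe sets on 35 arrays. As the values show, the authors brought all arrays to nearly the same 2% trimmed mean (500.06 to 500.08). Which software made them is not given in the sources used. All value columns had a sample (0 without). Values under 1 were raised to a floor of 1, log2 was taken, and the 35 arrays, with medians of 5.39 to 6.36, were quantile-normalised together. After removal of 123 control probe sets, a probe set was tested if it reached 5.83 (the overall median) on 3 or more of the 32 replicated arrays, which left 38673. Group means were fitted jointly in limma 3.58.1 (lmFit, eBayes; R 4.3.3) with 21 residual and 1.64 prior degrees of freedom. Adjustment was by Benjamini-Hochberg over all of these probe sets per comparison, and errors are limma's standard errors. The fit was tested on simulated data.

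Probe sets were named from the platform's annotation, with symbols from a rice gene table of assembly ASM3414082v1 that served for names and neighbours only. No coordinates or sequences are given, and the grouping of Aux/IAA proteins by degron and repressor motif is not analysed here. ARF5, ARF6, ARF8, ARF19, ARF21, ARF25, IAA11 and IAA29, for which no probe set with 1 gene was found, and IAA22, IAA27, IAA28, ARF11 and ARF20, which found no match by name, were not used. For 8 genes that carry more than 1 family name, the name that keeps numbers rising along the genome was used. Members and lists were chosen with earlier results of these data known. Named genes were the called members with the largest differences, up to 8 per direction and comparison, those with the largest gap between the highest organ and the next, and members that a statement on a class needed. Samples of the same replicate number showed little tendency to deviate together (median r of 0.01 over 155 pairs, against 0.00 over 310 pairs of different number). The main fit therefore used no pairing, although this check cannot exclude that arrays of the same number share a plant or batch. Alternatives were the deposited scale, hybridization controls set equal, log2(signal + 16), no filter, other probe sets, probe sets that may cross-hybridise left out, a fit of the compared groups alone, a replicate block, and each array left out.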

Additional observations from a re-analysis of the deposited data

Results flagged for a closer look

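In 5 members the base-to-top difference itself differed between internode I and the flag sheath by limma's contrast of the differences. These calls were no more frequent among members than over all probe sets tested. Positive ones made up 4.88% of members against 6.99%, and negative ones 7.32% against 10.3%. ARF10 differed by 2.20 ± 0.46 (2.55 in the internode and 0.35 in the sheath, adjusted p = 0.00105) and IAA23 by 2.34 ± 0.59 (0.45 and -1.89, adjusted p = 0.00589). ARF17 differed by -1.80 ± 0.33 (-0.80 and 1.00, adjusted p = 0.000338), ARF15 by -1.25 ± 0.24 (-0.70 and 0.55, adjusted p = 0.000432) and IAA24 by -1.55 ± 0.41 (-0.86 and 0.70, adjusted p = 0.00836). The sheath base has 2 arrays that lie far apart. Without base replicate 2 the values were 2.09 for ARF10, 1.94 for IAA23, -1.63 for ARF17, -1.18 for ARF15 and -1.95 for IAA24, and all 5 stayed called. Without base replicate 1 IAA24 was at -1.15 (adjusted p = 0.0806) and no longer called, and it was also not called in the fit of these groups alone (adjusted p = 0.0773).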

How the results depend on the processing

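The 79 called gene results were recomputed under the alternatives, which gave 1293 values. Of these 1218 kept direction and call, 74 lost the call and 1 changed sign (ARF2 at the sheath base, which ranged from -0.22 without base replicate 2 to 2.40 without base replicate 1). With each array left out in turn, members called higher and lower ranged over 8 to 11 and 4 to 5 for the internode, 6 to 8 and 1 to 2 for nodes against the internode top, 20 to 23 and 2 to 2 for nodes against the blade, 4 to 5 and 11 to 12 for the flower, 0 to 13 and 0 to 4 for the sheath, 2 to 6 and 3 to 7 for the internode against the sheath difference, 0 to 1 and 0 to 1 along the blade, and 0 in both directions between the nodes. The F test called 40 in all of these. The count of 1 member lower in nodes than the internode top became 2 without internode I top replicate 1, in the fit of those groups alone and with the replicate block. Along the blade 1 member was called higher with the replicate block or without blade base replicate 2, and 1 lower without blade base replicate 3. The fit of the sheath groups alone called 0 higher and 0 lower. The count of 3 members with a negative difference between internode and sheath became 6 on the deposited scale, and 5 with hybridization controls set equal and on the log2(signal + 16) scale. It was 5 without internode I top replicate 2, 6 without internode I base replicate 2 and 7 without either sheath base array, and the count of 2 positive ones became 6 without sheath base replicate 2. Apart from fewer arrays in a fit, the causes were not tested. The replicate block changed no other count by more than 1.5 times. Setting the controls equal moved the median of all probe sets to -0.27 for nodes against blade, where the member median became 0.67, and to -0.26 for the internode, where it became 0.23. Signal near background limits dim genes such as IAA7, IAA12 and IAA14 in the blade.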
